A study of Mus musculus with 30 samples.

Results

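Matrix proteases and their inhibitors were taken as all genes with a symbol of Mmp and a number (with or without a letter), Adamts and a number, or Timp1, Timp2, Timp3 or Timp4. Of 46 such genes in the mouse gene table used for names, 37 had a probe set with their symbol, among 18193 named genes on the array. For the other 9 (Adamts2, Adamts13, Adamts14, Adamts17, Mmp15, Mmp21, Mmp25, Mmp27 and Mmp28) no level is given, and those with a promoter entry enter the motif counts only. Each gene was read from its brightest probe set, and 31 of the 37 passed a filter on dim signals and were tested. The 6 that did not pass were Mmp1a, Mmp1b, Mmp3, Mmp13, Mmp20 and Adamts19.

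The arrays hold limb mesenchyme, the loose embryonic tissue that forms limb cartilage, from CD-1 mouse embryos at stage E10.5. Cells were freed by protease digestion, plated as dense spots and grown in medium with serum. The labels name an early population from distal hindlimb, an intermediate population from distal forelimb and a late population from proximal forelimb. Each was sampled in control medium at days 0, 1 and 2, and at days 1 and 2 in medium holding BMP4, a bone morphogenetic protein, at 20 ng/ml from time 0. These 15 groups have 2 arrays each, which the labels call biological replicates, and the RNA came from cultures of about 280 pooled embryos. The protocol also mentions cultures of a later embryonic age, but every array is labelled E10.5. The study's title asks how BMP signals regulate cartilage formation in early limb mesenchyme.

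The matrix metalloproteinases (MMPs) are zinc enzymes that together cut collagens, laminin, fibronectin and other matrix proteins, and they are made as inactive precursors whose propeptide must be removed. MMP14 sits in the cell membrane and, with the inhibitor TIMP2, activates the secreted gelatinase MMP2. The ADAMTS enzymes are secreted relatives that bind matrix, and several cut the large proteoglycans aggrecan and versican, which fill young limb matrix and cartilage. The 4 TIMPs block MMPs, and TIMP3 also blocks several ADAMTS enzymes. The loss of versican-cutting ADAMTS enzymes is known to leave soft tissue between the digits of the mouse.

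Levels are given as log2(signal + 16). On this scale a difference of 1 is a 2-fold change for bright genes and less than the true change for dim ones. Folds given below are ratios of signal + 16, so they too understate changes of dim genes. Array medians of the deposited signal lay between 33.9 and 46.4, and r between the 2 arrays of a group was 0.97 to 0.984 across genes, which are not independent replicates. The mean level of 8 markers of limb mesenchyme lay between 8.82 and 9.72 on every array. Single markers changed in opposite directions over the first day in control medium. Prrx1 and Twist2 were called higher, and Prrx2, Twist1 and Msx1 lower, with Msx1 at -2.12. At day 0 the replicate 2 library labelled early read 6.79 for Tbx4, a hindlimb gene, and 8.50 for Tbx5, a forelimb gene, and the replicate 2 library labelled intermediate read 10.46 and 4.68, each against its label. The 3 replicate 2 libraries of day 0 were therefore treated as doubted. The comparisons with day 0 use the mean over the 3 populations, and an exchange of labels among them does not alter this mean. The doubted libraries still enter the spread per gene that all comparisons share, and calls changed without them. A level in these cultures sums over all their cells, so more cells of a type and more RNA per cell cannot be told apart.

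Of the 37 genes, 14 lay above their array's 40th percentile of signal on all 30 arrays, 11 on 20 to 29 arrays, 6 on 2 to 19 arrays and 6 on 0 or 1. Of the last 6, all but Adamts19 lie in 1 stretch of the genome. On chromosome 9, 10 Mmp genes follow each other in the gene table with no other protein-coding gene between them. They are Mmp13, Mmp12, Mmp1b, Mmp3, Mmp1a, Mmp10, Mmp8, Mmp27, Mmp20 and Mmp7. They include the collagenases, the stromelysins 1 and 2 and the macrophage elastase Mmp12. Genes of other kinds were left out of this search. Of the 9 on the array, 4 passed the filter, and they lay above the 40th percentile on 0 to 15 arrays (median 1). Of the 9 other Mmp genes, all passed, and they lay above it on 7 to 30 arrays (median 29). These counts say how often each probe set exceeded a fixed rank on its own array, and probe sets differ in how well they bind.

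The stretches before the gene starts were searched for motifs. In RefSeq promoters of assembly GRCm38.p6, which span 250 bases before to 50 bases after the start, the AP-1 motif TGANTCA (searched on both strands, which read the same) was present for 8 of 10 genes of the run. It was present for 0 of the 22 other protease and inhibitor genes with a promoter entry. Of all 27025 genes with an entry 8.973% had it, and of all 32851 promoters 7.808%. The 8 matches are shown because they lie at similar distances from the start, between -95 and -35. Capitals mark the motif, and each sequence reads 5′ to 3′ on the strand of its gene.
Mmp13 (chr9:7272468-7272496, + strand, motif at -35): ccccaaagtggTGACTCAtcactatcatg
Mmp12 (chr9:7347319-7347347, + strand, motif at -44): gacatcaacagTGAGTCAgatagaggatt
Mmp1b (chr9:7388102-7388130, - strand, motif at -93): gttacaaagccTGAGTCAtatagcctctg
Mmp3 (chr9:7445765-7445793, + strand, motif at -46): ggaagcaattaTGAGTCAgttttcgggtg
Mmp1a (chr9:7464057-7464085, + strand, motif at -73): gttgtcaaccaTGAGTCAcatagcctctg
Mmp10 (chr9:7502268-7502296, + strand, motif at -63): tagcacccatgTGAGTCAtgcttagtgac
Mmp20 (chr9:7628125-7628153, + strand, motif at -95): catttgagacaTGAATCAtcacttacagg
Mmp7 (chr9:7692016-7692044, + strand, motif at -63): aagtgtgcaaaTGAGTCAcctatttccac

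The counts for 2 further motifs are given without a test. TATAAA, on either strand, was present for 9 of 10 genes of the run and for 2 of 22 others (Adamts1 and Mmp21). Of all genes with an entry 15.667% had it, and of all promoters 13.616%. The GC-rich GGCGCC, which reads the same on both strands, was present for 0 of 10 and 6 of 22. The 6 were Adamts2, Adamts9, Adamts14, Mmp11, Mmp23 and Mmp24. Of all genes with an entry 13.384% had this motif, and of all promoters 11.866%. The genes of the run are copies of each other in evolution, so they are not independent cases. A match describes these letters and is not a shown binding site. The plot of Mmp signals shows how the run and the other genes lay against the percentile on each array.

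**Figure D1:**
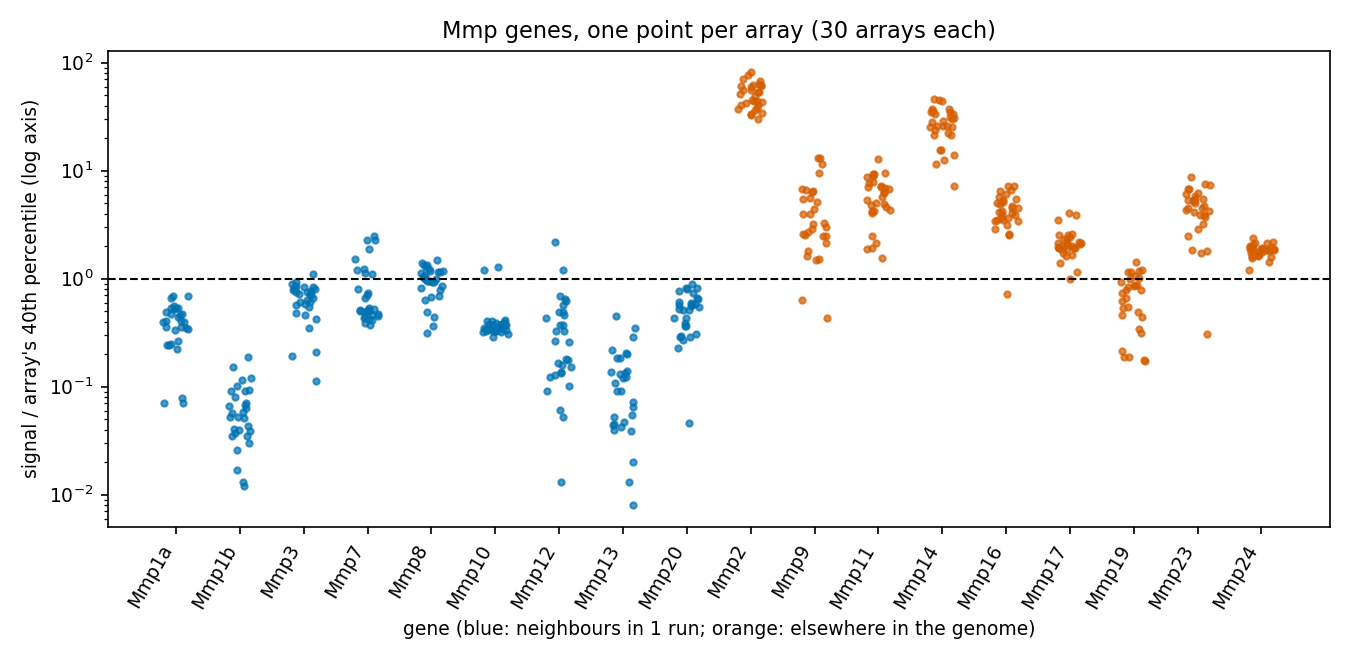
Signal of each Mmp gene divided by the same array's 40th percentile of signal (log axis), with 1 point for each of 30 arrays and a dashed line at the percentile itself. Blue genes lie side by side in the chromosome 9 run and were above the line on at most 15 arrays, and orange genes lie elsewhere and were above it on 7 to 30. Heights of different genes are not comparable, because each comes from its own probes.

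Over the first day in control medium, 14 of the 31 tested genes rose and 2 fell, against 22.5% and 17% of all 15136 genes tested (limma, Benjamini-Hochberg adjusted p under 0.05 over all genes). The median difference from day 0 was 0.33 over the 31 genes and 0.00 over all genes. The 14 that rose comprised 3 of the 4 tested inhibitors, 3 of the 7 enzymes grouped as cutting aggrecan and versican, both enzymes that cut cartilage oligomeric matrix protein, and Mmp9, Mmp11, Mmp14, Mmp23, Adamts3 and Adamts10. Mmp2 and Adamts20 fell. The heat map of all tested genes shows this step as the change from blue in the day 0 columns to pale colours after it.

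**Figure D2:**
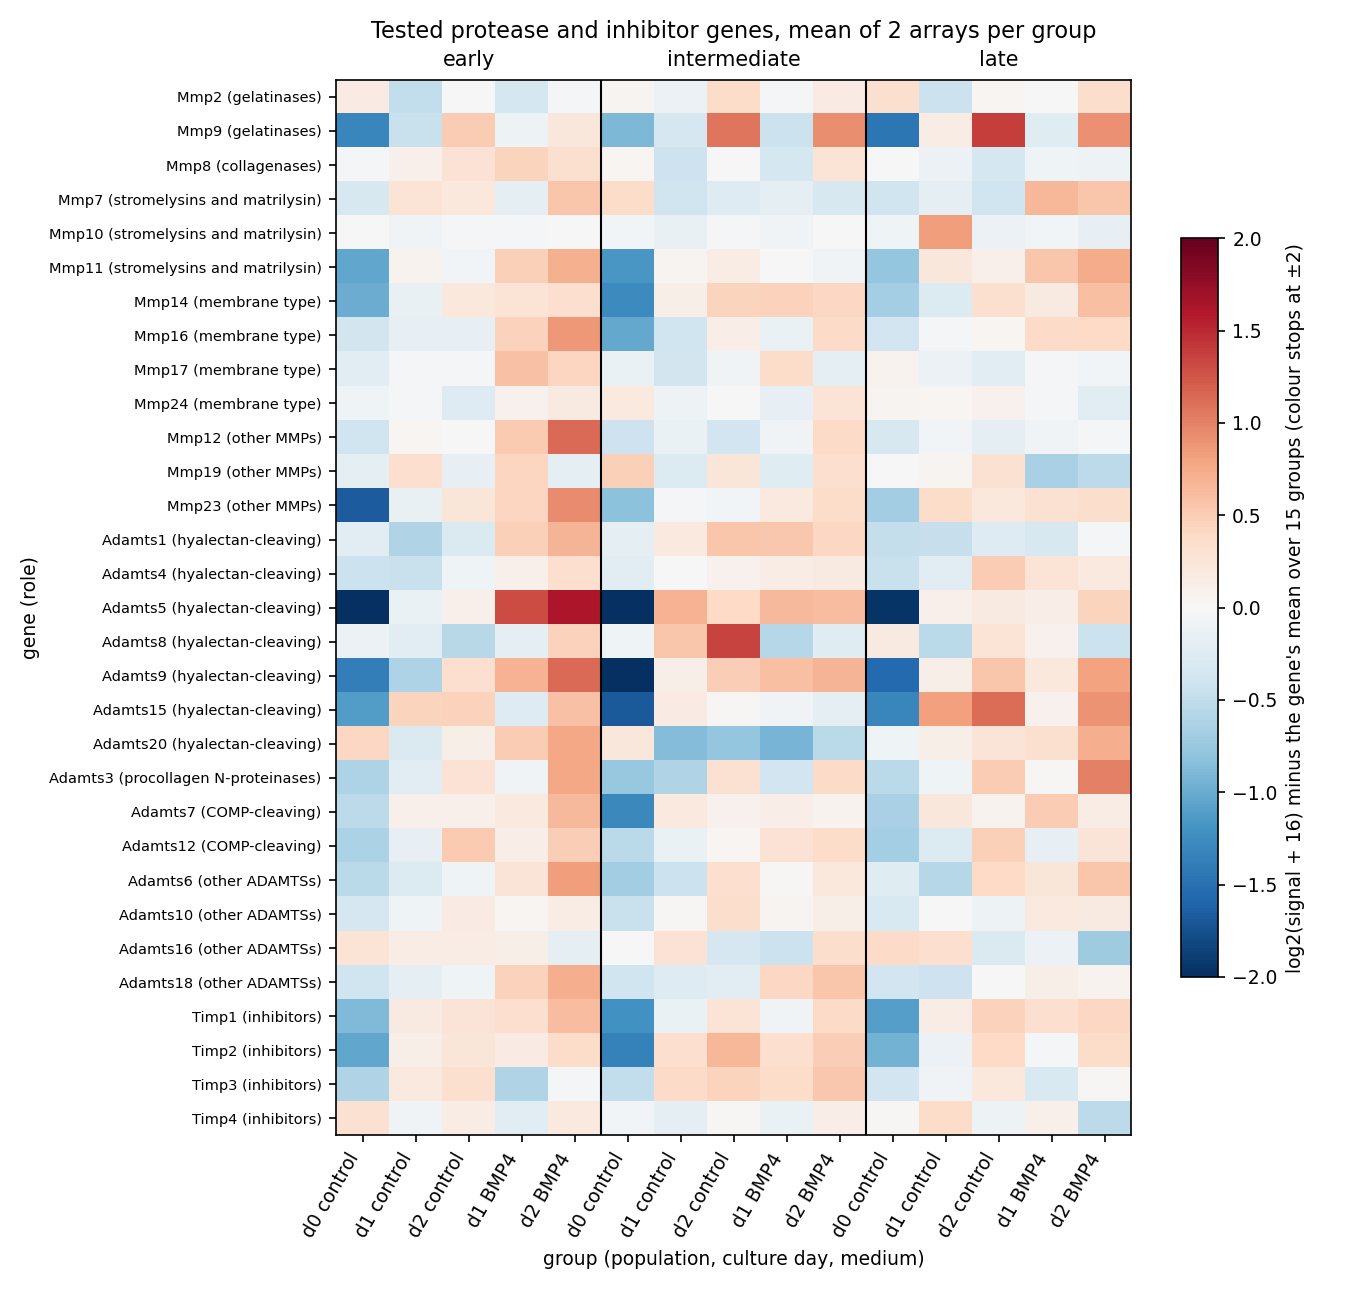
Heat map of the 31 tested genes (rows, with the role used to order them) in the 15 groups (columns, by population, culture day and medium). Colour is the mean log2(signal + 16) of 2 arrays minus that gene's mean over all groups, so rows can be compared by pattern and not by level. Adamts5, Adamts9, Adamts15, Timp1 and Timp2 are lowest in the 3 day 0 columns, and Adamts5 is highest in the early BMP4 columns.

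Adamts5, an aggrecan- and versican-cutting enzyme, had the largest rise among the tested members. Its 6 day 0 arrays read from 5.20 to 6.07 (median 5.70) and its 6 day 1 arrays from 7.24 to 8.42 (median 8.01). All 6 day 1 arrays were higher than all 6 day 0 arrays, with a difference of 2.25 ± 0.21 (SE), 4.75-fold, and adjusted p = 3.41e-08 by limma. Of its 3 other probe sets 2 gave 2.19 and 1.10 and the third, a dim one, gave 0.22.

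Adamts15, which also cuts versican and aggrecan, went from 5.69 to 6.64 (median 5.90) at day 0 to between 7.49 and 8.29 (median 7.86) at day 1. The 2 days did not overlap, and the difference was 1.84 ± 0.13 (SE), 3.59-fold, with adjusted p = 1.13e-09. Adamts9, a versican-cutting enzyme also known for its part in interdigital tissue loss, read from 6.24 to 7.49 (median 6.61) at day 0 and from 7.79 to 8.85 (median 8.40) at day 1. Its days did not overlap either, with a difference of 1.57 ± 0.15 (SE) and adjusted p = 2.98e-08. The 2 dimmer probe sets of Adamts9 did not repeat this size, at 0.17 and -0.28, and the mean of its probe sets rose by 0.49.

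Not all enzymes of that group moved. Adamts1 had a difference of 0.00, Adamts4, the other main aggrecanase, 0.15 and Adamts8 -0.05. Adamts1 read from 9.13 to 9.69 at day 0 and from 8.74 to 10.01 at day 1, and the days overlapped. Adamts20, whose loss adds to that of Adamts5 and Adamts9 in digit webbing, fell by 0.53 ± 0.21 (SE), adjusted p = 0.0442, with overlapping days. Its call was lost when any of 9 of the 12 arrays was left out, and without the 3 doubted libraries.

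Among the inhibitors, Timp1 read from 6.34 to 6.86 (median 6.62) at day 0 and from 7.42 to 8.02 (median 7.72) at day 1. Timp2, needed for activation of MMP2 at the cell surface, read from 8.11 to 9.25 (median 8.86) and then from 9.66 to 10.38 (median 9.97). Neither gene had overlapping days, and the rises were 1.13 ± 0.13 (SE), adjusted p = 5.4e-07, for Timp1 and 1.22 ± 0.15 (SE), adjusted p = 1.23e-06, for Timp2. Timp3, the matrix-bound inhibitor, rose by 0.67 ± 0.15 (SE), adjusted p = 0.00109, though its lowest day 1 array (9.46) lay below its highest day 0 array (9.63). Timp4 read from 5.36 to 6.28 at day 0 and from 5.39 to 6.21 at day 1, a difference of -0.06.

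The gelatinases moved in opposite directions. Mmp2 read from 10.01 to 10.63 (median 10.52) at day 0 and from 9.65 to 10.58 (median 9.84) at day 1, and it fell by 0.52 ± 0.14 (SE), adjusted p = 0.00448. Of its 6 day 1 arrays, 5 lay below the lowest day 0 array. Mmp9 read from 4.73 to 5.95 (median 5.78) at day 0 and from 6.24 to 6.95 (median 6.40) at day 1, with no overlap, and rose by 1.01 ± 0.25 (SE), adjusted p = 0.00298. Both gelatinases kept these calls without any 1 of the 12 arrays.

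Mmp14, the membrane enzyme that activates MMP2, read from 7.62 to 8.69 (median 8.54) at day 0 and from 9.04 to 9.52 (median 9.19) at day 1. All its day 1 arrays were higher, by 0.88 ± 0.12 (SE), adjusted p = 6.74e-06, and its 2 other probe sets gave 1.17 and 0.54. The 3 other tested membrane-type genes did not pass, with Mmp16 at 0.40, Mmp17 at -0.08 and Mmp24 at -0.09. Mmp11, or stromelysin 3, rose by 1.12 ± 0.21 (SE) and Mmp23, a membrane-anchored enzyme released by furin-type cutting, by 1.13 ± 0.19 (SE). The days of Mmp23 did not overlap, and those of Mmp11 did, through the replicate 1 array labelled late (7.13).

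Adamts7, which cuts cartilage oligomeric matrix protein, rose by 0.99 ± 0.17 (SE), adjusted p = 1.04e-04, and its relative Adamts12 by 0.42 ± 0.15 (SE), adjusted p = 0.0286. Adamts12 lost its call when any of 6 of 12 arrays was left out. Adamts3, which trims procollagen, rose by 0.34 ± 0.11 (SE) and Adamts10 by 0.34 ± 0.09 (SE). The call of Adamts3 was lost without the early replicate 1 array of day 0 or of day 1, and the mean of its probe sets gave 0.05. Without the 3 doubted libraries 16 genes were called, 15 of them shared with the 16 called with all arrays.

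**Figure D3:**
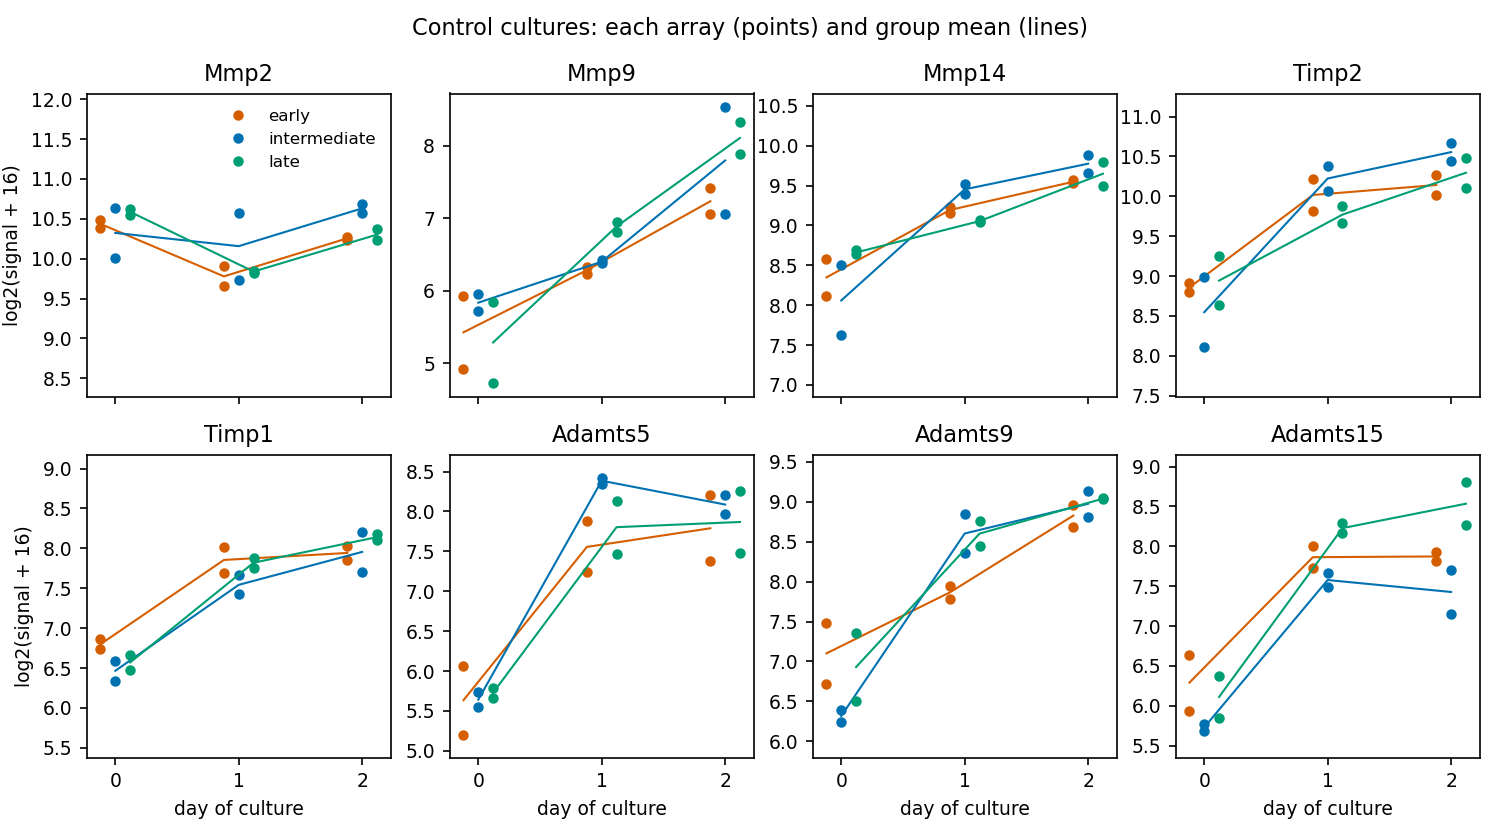
Level, as log2(signal + 16), of 8 genes in control medium against day of culture, with 1 point per array (2 per population and day) and lines through group means for early (orange), intermediate (blue) and late (green), as labelled, which at day 0 includes the 3 doubted arrays. Each panel has its own level axis. Adamts5, Adamts15, Timp1 and Timp2 step up between days 0 and 1, Mmp9 climbs on both days, and Mmp2 is lowest at day 1.

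Markers of several kinds of cells changed on the same day. All 7 tested skeletal muscle markers, 4 of 5 smooth muscle markers and all 6 cartilage markers rose, while 6 of 8 endothelial and 4 of 5 red blood cell markers fell. The mean of the endothelial markers lay between 6.03 and 6.80 on the day 0 arrays and between 5.10 and 5.65 on the day 1 control arrays. That of the red blood cell markers lay between 7.10 and 9.08 and then between 4.79 and 5.10, and that of the smooth muscle markers between 5.54 and 5.75 and then between 8.47 and 9.13. The part of these shifts in the protease changes was not tested.

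Over the second day 7 of the 31 genes rose and 0 fell, against 5.61% and 2.94% of all genes, with a median difference of 0.16 over the 31 and 0.00 over all genes. By unadjusted p under 0.05, 3322 of all genes passed in either direction, and centring each array on its median changed the split of all called genes from 849 higher and 445 lower to 678 and 213. This comparison shares its day 1 arrays with the first. Mmp9 reached from 7.05 to 8.53 (median 7.65) at day 2, above every day 1 array, and rose by a further 1.19 ± 0.25 (SE), 2.28-fold, adjusted p = 0.00479. The rise of Mmp9 was 0.95 in early, 1.39 in intermediate and 1.22 in late cultures. Mmp2 rose again by 0.47 ± 0.14 (SE), adjusted p = 0.0371, to between 10.23 and 10.69, with a median of 10.32 against 10.52 at day 0.

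Adamts3 rose by 0.67 ± 0.11 (SE), adjusted p = 2.59e-04, and its day 2 arrays (6.61 to 7.05) were all above its day 1 arrays (5.78 to 6.48). Adamts6, a less studied family member, rose by 0.64 ± 0.15 (SE), adjusted p = 0.00828, also without overlap, from between 5.06 and 5.62 to between 5.70 and 6.34. Adamts9 rose by 0.59 ± 0.15 (SE), Adamts12 by 0.54 ± 0.15 (SE) and Mmp14 by 0.42 ± 0.12 (SE), each with days that overlapped. Mmp2 and Mmp14 each lost their call when any of 10 of 12 arrays was left out, and Adamts12 when any of 8 was. With the mean of all probe sets of a gene 4 genes were called, and Adamts6 (0.33), Adamts9 (0.26) and Mmp14 (0.32) were lost.

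Adamts5, Adamts15 and the inhibitors were not called on the second day. Adamts5 had a second-day difference of 0.00, Adamts15 0.06, Timp3 0.15, Timp1 0.27 and Timp2 0.33. Timp4, Adamts4 (0.38) and Adamts16 (-0.42) passed on neither day, as did Mmp7, Mmp8, Mmp10, Mmp12, Mmp16, Mmp17, Mmp19, Mmp24, Adamts1, Adamts8 and Adamts18.

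The activator list held 44 further genes, namely protease activators and other inhibitors together with other proteases and matrix genes. Of these 38 were tested. Over the first day 22 rose and 3 fell, with a median of 0.51, against 22.5% higher and 17% lower of all genes. Over the second 7 rose and 0 fell, against 5.61% and 2.94%. Reck, a membrane-anchored inhibitor of MMPs, rose by 1.21 ± 0.07 (SE) and then by 0.60 ± 0.07 (SE), from between 8.54 and 9.04 at day 0 to between 10.28 and 10.88 at day 2. Furin and Pcsk6, convertases that can remove MMP and ADAMTS propeptides, rose by 0.77 ± 0.14 (SE) and 0.96 ± 0.13 (SE) on the first day. Pcsk5, another convertase of the list, fell by 0.45 ± 0.13 (SE) on the first day and rose by 0.85 ± 0.13 (SE) on the second. Plat and Plaur, the tissue plasminogen activator and the urokinase receptor, rose by 1.04 ± 0.24 (SE) and 0.92 ± 0.30 (SE). The secreted serine protease Htra1 rose by 1.80 ± 0.18 (SE) and then by 1.57 ± 0.18 (SE), while Ctsk, cathepsin K, fell by 1.10 ± 0.17 (SE) on the first day.

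Of 24 matrix substrates, all tested, 13 rose and 2 fell over the first day, against the same 22.5% and 17% of all genes, and 7 rose and 0 fell over the second, against 5.61% and 2.94%. Acan, the aggrecan gene, rose by 0.94 ± 0.20 (SE) and then 1.29 ± 0.20 (SE), and Vcan, the versican gene, by 0.57 ± 0.21 (SE) on the first day. Comp, the substrate of ADAMTS7 and ADAMTS12, rose by 1.79 ± 0.26 (SE) on the second day. Adamts5 was thus called on the first day, Comp on the second and Acan on both.

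BMP4 was compared with control medium in each population and day. In early cultures at day 1, 3 of the 31 genes were higher and 0 lower, against 1.53% and 0.918% of all genes, and the median difference was 0.29 over the 31 and 0.05 over all genes. At day 2, 3 were higher and 0 lower, against 2.4% and 3.28% of all genes, with medians of 0.43 and 0.02. The genes were Adamts1, Adamts5 and Adamts9 at day 1 and Adamts1, Adamts5 and Adamts6 at day 2, all of the ADAMTS family. Of all genes 2274 and 3088 passed an unadjusted p under 0.05 at the 2 days. With each array centred on its median, which moved the median difference of all genes at day 2 from 0.02 to -0.15, the split of all called genes went from 232 higher and 139 lower to 136 and 182 at day 1, and from 364 and 496 to 214 and 944 at day 2. With that centring 2 members were higher and 1 lower at day 1 (Adamts15, -0.83, adjusted p = 0.049), and 2 higher at day 2. Adamts5 then missed the threshold at day 1 (1.32, adjusted p = 0.0625) and Adamts6 at day 2 (0.76, adjusted p = 0.0727).

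Adamts5 read 7.24 and 7.88 on the control arrays of early day 1 and 8.82 and 9.18 on the BMP4 arrays. At day 2 it read 7.38 and 8.20 in control and 8.90 and 9.73 in BMP4 medium. Both BMP4 arrays lay above both control arrays at each day, by 1.44 ± 0.36 (SE), adjusted p = 0.0367, and by 1.52 ± 0.36 (SE), adjusted p = 0.0166, a 2.87-fold difference at day 2. Its 2 other bright probe sets gave 1.14 and 0.73 at day 1 and both gave 1.23 at day 2.

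Adamts1, another enzyme that cuts aggrecan and versican, read 8.74 and 9.46 in control and 10.22 and 10.12 in BMP4 medium at early day 1. At day 2 it read 9.39 and 9.42 against 10.12 and 10.63. The arrays did not overlap at either day, and the differences were 1.07 ± 0.23 (SE), adjusted p = 0.0133, and 0.97 ± 0.23 (SE), adjusted p = 0.0173. Adamts1 and Adamts5 are neighbours on chromosome 16 in the gene table, with no other protein-coding gene between them. In control medium Adamts1 had a first-day difference of 0.00 and Adamts5 one of 2.25.

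Adamts9 read 7.79 and 7.94 in control and 9.29 and 9.09 in BMP4 medium at early day 1, and 8.69 and 8.97 against 9.58 and 9.65 at day 2. The day 1 difference was 1.33 ± 0.25 (SE), 2.51-fold, adjusted p = 0.00457, and its 2 other probe sets gave 1.16 and 0.51. The day 2 difference of 0.79 did not pass (adjusted p = 0.0686), although the arrays did not overlap. Adamts9 passed at day 2 with a pseudocount of 64, quantile normalization or the mean of its probe sets (limma, adjusted p = 0.0364, 0.0408 and 0.0428). It did not with each array centred on its median. Adamts6 read 5.74 and 5.70 against 6.60 and 6.70 at day 2, a difference of 0.93 ± 0.25 (SE), adjusted p = 0.0336, but its dimmer probe set gave 0.47.

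The stretches before the starts of Adamts1 and Adamts9 are shown because these 2 were called under BMP4 in early cultures and have a promoter entry. Adamts5 and Adamts6 have none. Each is the 250 bases before the start in assembly GRCm38.p6, 5′ to 3′ on the gene's strand, with the TATAAA motif in capitals for Adamts1 (at -32) and GGCGCC in capitals for Adamts9 (at -183).
Adamts1 (chr16:85803114-85803363, - strand): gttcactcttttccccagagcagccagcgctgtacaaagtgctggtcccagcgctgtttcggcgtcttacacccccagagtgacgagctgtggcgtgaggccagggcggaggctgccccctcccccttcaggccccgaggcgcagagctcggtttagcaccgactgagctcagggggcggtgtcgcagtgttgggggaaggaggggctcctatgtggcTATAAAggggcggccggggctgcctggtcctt
Adamts9 (chr6:92943535-92943784, - strand): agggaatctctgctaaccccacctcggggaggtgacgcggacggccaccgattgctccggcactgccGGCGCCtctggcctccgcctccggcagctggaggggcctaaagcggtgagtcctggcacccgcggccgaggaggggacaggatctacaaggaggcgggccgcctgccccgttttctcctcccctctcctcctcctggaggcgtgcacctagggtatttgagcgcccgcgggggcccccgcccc
Both are rich in G and C, at 65.6% and 71.2%, and neither holds the AP-1 motif that 8 genes of the Mmp run carry.

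With 2 arrays per group these calls rest on few arrays. The call of Adamts5 at day 1 was lost when any 1 of the 4 arrays was left out (difference 1.12 to 1.76) and at day 2 without the replicate 1 control or the replicate 2 BMP4 array (1.11 to 1.94 over the 4). Adamts1 lost its day 1 call without the replicate 1 control or either BMP4 array (0.71 to 1.43), and its day 2 call without either control or the replicate 2 BMP4 array (0.71 to 1.22). Adamts9 lost its day 1 call only without the replicate 1 control, with adjusted p = 0.0713, and Adamts6 lost its day 2 call without any 1 of the 4 (0.88 to 0.98). A fit of the early arrays of the day alone called 1 member at each day, Adamts9 at day 1 and Mmp16 at day 2, so that none of the 3 day 2 calls held in it.

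**Figure D4:**
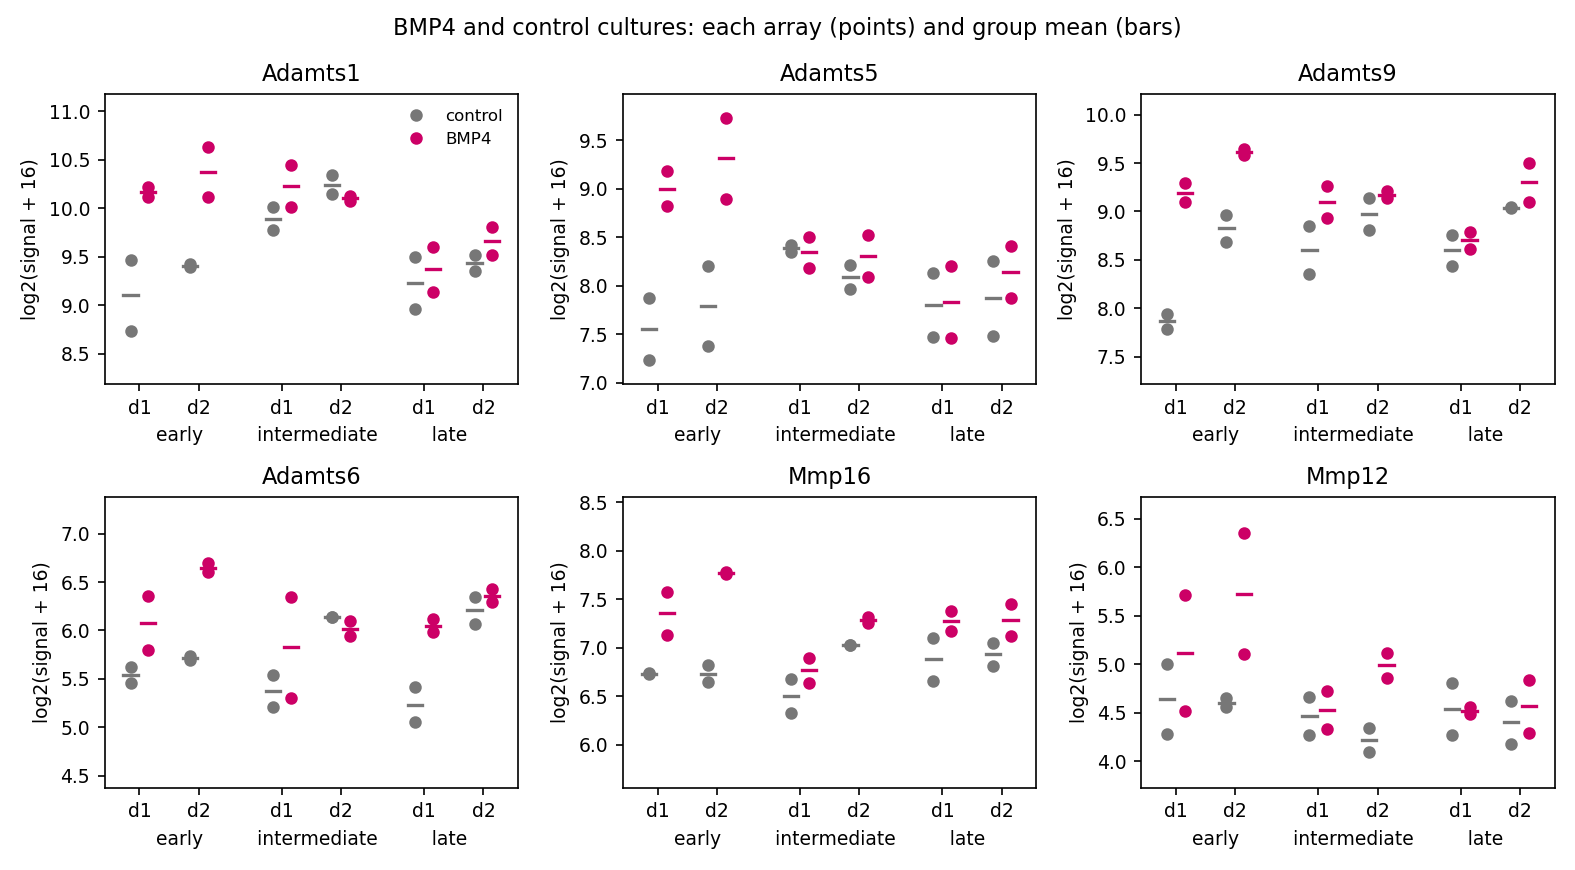
Level, as log2(signal + 16), of 6 genes in control (grey) and BMP4 (magenta) cultures by population and day, with 1 point per array and a bar at the mean of 2 arrays. Each panel has its own level axis. In early cultures the BMP4 points of Adamts1, Adamts5 and Adamts9 lie above both control points at each day, while the Mmp12 points differ widely between the BMP4 arrays.

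Other members were higher on both early BMP4 arrays of day 2 but did not pass. Mmp16, a membrane-type enzyme, read 6.82 and 6.64 in control and 7.76 and 7.78 in BMP4 medium, a difference of 1.04 with adjusted p = 0.051, and it passed without the 3 doubted libraries (adjusted p = 0.00511). Mmp12, the macrophage elastase, read 4.65 and 4.56 against 6.36 and 5.10. Mmp12 exceeded the 40th percentile of signal on 2 arrays only, both early and in BMP4 medium, and passed the filter through them, so its values are a description. At day 1 both BMP4 arrays lay below both controls without passing for Timp3, Adamts15 and Mmp7. The differences were -0.79 (adjusted p = 0.121), -0.71 (adjusted p = 0.119) and -0.46 (adjusted p = 0.654). With the mean of its probe sets Timp3 passed, at -0.82 (limma, adjusted p = 0.0316).

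Macrophage markers moved with the same cultures. In early cultures 2 of 9 tested markers were higher under BMP4 at day 1 and 7 of 9 at day 2, and their mean level was 5.95 to 6.16 on the day 2 controls and 7.21 to 7.31 on the BMP4 arrays. At day 1 it was 6.05 to 6.22 and 6.88 to 7.05. In intermediate cultures the mean was higher too, at 6.36 to 6.58 against 7.03 to 7.23 at day 1. At day 2 it was 6.11 to 6.16 against 6.96 to 7.02. Of the 9 markers, 1 passed in intermediate cultures at day 1 and 0 at day 2. Cartilage markers moved the other way in early cultures, with 3 of 6 lower at day 2 and a mean of 10.35 to 10.41 in control and 7.75 to 9.32 in BMP4 medium. Their part in the protease differences was not tested.

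Among the 38 tested genes of the activator list, 4 were higher under BMP4 in early cultures at day 1 (Ctsb, Ctss, Adam10 and Spock3). At day 2, 5 were higher, when Ctsd joined them, while Reck and Pcolce2 were lower. Of all genes 1.53% were higher and 0.918% lower at day 1, and 2.4% and 3.28% at day 2. Cathepsin S, Ctss, is abundant in macrophages, and it was higher by 1.15 ± 0.25 (SE) and 1.62 ± 0.25 (SE). Spock3, a testican proteoglycan, was higher by 2.66 ± 0.37 (SE) and 1.53 ± 0.37 (SE). Reck was lower by -0.52 ± 0.13 (SE) at day 2. Of the 24 substrates, Vcan was lower at day 1 by -1.50 ± 0.37 (SE) and Acan and Comp at day 2 by -1.47 ± 0.35 (SE) and -1.89 ± 0.44 (SE). Dcn, the decorin gene, and Cdh2, the N-cadherin gene, were higher at both days, and Fmod and Lama1 at day 1.

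No member was called under BMP4 in intermediate or late cultures. The backgrounds were small as well, at 0.172% of genes higher and 0.0661% lower in intermediate cultures at day 1, 0.00661% and 0% at day 2, 0.0661% and 0.0132% in late cultures at day 1, and 0.00661% and 0.00661% at day 2. By limma, 1134, 686, 1144 and 712 genes of all passed an unadjusted p under 0.05 in these 4 comparisons. Where no gene differs, a share of 0.05 of the 15136 genes tested is expected to pass. The day 2 counts, 686 and 712, lie below that share. Adamts5 differed by -0.04 and 0.22 in intermediate cultures and by 0.03 and 0.27 in late cultures, and Adamts1 by 0.34 and -0.14 and by 0.14 and 0.22. Of the activator list, Pcsk6 alone was called in these cultures. It was higher under BMP4 in intermediate cultures at day 1, by 1.23 ± 0.22 (SE), limma adjusted p = 0.0126. No substrate was called. Mmp10, stromelysin 2, read 5.50 and 5.57 on the 2 late controls of day 1 and 4.49 to 4.77 on all 28 others. It passed the filter through those 2 arrays alone, so these values are a description.

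Whether the response to BMP4 differed between populations was tested as a difference of differences over both days. Between early and late 0 of 31 members differed, against 0.337% of genes higher and 0.443% lower, and 1817 of all genes passed an unadjusted p under 0.05. Adamts5 came to 1.33 (adjusted p = 0.102), Adamts1 to 0.84 (adjusted p = 0.107) and Adamts9 to 0.88 (adjusted p = 0.117). In a limma fit with a replicate block, a term for replicate number, Adamts5 and Adamts1 passed (adjusted p = 0.00871 and 0.0358). The numbers were not taken to pair the arrays, so the block was not used in the main fit. Adamts9 passed without the 3 doubted libraries (adjusted p = 0.0334) and in a fit of only the groups compared (adjusted p = 0.0276). Between early and intermediate 1 member differed, against 0.211% and 0.218% of genes, and with the block Adamts5 and Adamts1 passed as well. Between intermediate and late 0 members differed, against 0% and 0%, and 598 genes passed an unadjusted p under 0.05. That count lies below the share of 0.05 expected where no gene differs.

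The member called between early and intermediate in the main fit was Adamts8. It is an aggrecan-cutting enzyme whose gene is the neighbour of Adamts15 among the protein-coding genes of chromosome 9. In early cultures at day 2 it read 5.62 and 5.43 in control and 6.97 and 6.10 in BMP4 medium, and in intermediate cultures it read 7.88 and 7.00 against 5.95 and 5.73. The 2 BMP4 arrays were thus higher than both controls in early cultures and lower in intermediate cultures. At day 1 it read 5.64 and 6.10 against 5.44 and 6.33 in early cultures, which overlap, and 6.68 and 6.60 against 5.82 and 5.21 in intermediate cultures. The responses differed by 1.87 ± 0.39 (SE), adjusted p = 0.0287, while neither population's own response passed (early day 2 adjusted p = 0.132, intermediate day 2 adjusted p = 0.374). The call was lost without any 1 of 9 of the 16 arrays (1.65 to 2.09), in a fit of these arrays alone, and with a pseudocount of 1.

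A comparison of BMP4 with control averaged over populations and days was added after the values had been seen. By it 8 members were higher and 1 lower, against 6.1% and 5.55% of all genes, with medians of 0.17 over the 31 and 0.01 over all genes. The 8 were Adamts18 (0.59), Adamts5 (0.57), Adamts9 (0.53), Mmp16 (0.49), Adamts6 (0.46), Adamts1 (0.43), Mmp14 (0.27) and Adamts3 (0.25), and Adamts15 was lower at -0.33. Adamts18 read higher on the replicate 2 than on the replicate 1 array in all 15 groups. Adamts1, Adamts5, Adamts6, Adamts9 and Mmp16 kept their calls without any 1 of the 24 arrays, with the highest adjusted p at 0.0369. Adamts18 lost its call without any of 13 arrays, Mmp14 of 19, Adamts3 of 10 and Adamts15 of 8, and without the late replicate 1 control of day 1 5 members were called. It uses the same arrays as the comparisons above and holds the large early differences of Adamts5, Adamts1 and Adamts9, and 8 of 9 macrophage markers were higher by it as well.

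Adamts15 was lower under BMP4 at day 1 in each population. It read 7.72 and 8.0 against 7.31 and 7.00 in early, 7.49 and 7.66 against 7.28 and 7.40 in intermediate and 8.29 and 8.17 against 7.50 and 7.50 in late cultures, with no overlap in any. At day 2 the early BMP4 and control arrays overlapped, as did the intermediate and the late ones. None of the 6 differences passed in its own comparison. The added comparison that called Adamts15 lower holds these same arrays, so their values are a description and no separate support for it.

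The populations were compared in control medium over days 1 and 2. Between early and late 0 members differed, against 0.244% of genes higher and 1.24% lower in early, and 1332 genes passed an unadjusted p under 0.05. Between early and intermediate 2 were lower in early and 0 higher, against 0.542% and 0.311%. Between intermediate and late 2 were higher in intermediate and 2 lower, against 0.786% and 1.85%. The 3 comparisons share arrays, and the last 2 share the intermediate controls in which Adamts1 and Adamts8 are high. The early minus intermediate response to BMP4, by which Adamts8 was called above, uses these same intermediate controls.

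Adamts1 read 10.01, 9.77, 10.34 and 10.14 on the 4 intermediate controls of days 1 and 2, 8.74, 9.46, 9.39 and 9.42 on the early ones and 8.96, 9.50, 9.35 and 9.52 on the late ones. All intermediate arrays were thus the highest, by 0.81 ± 0.16 (SE) over early, adjusted p = 0.0149, and 0.74 ± 0.16 (SE) over late, adjusted p = 0.0135. Under BMP4 the early arrays of Adamts1 (10.12 to 10.63) overlapped the range of the intermediate controls, and 1 lay above it. Adamts8 was higher in intermediate controls by 1.34 ± 0.27 (SE) over early and 1.09 ± 0.27 (SE) over late, adjusted p = 0.0156 and 0.0312, with no overlap with either.

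Adamts15 was lower in intermediate than in late controls by -0.88 ± 0.16 (SE), adjusted p = 0.00298, at 7.49, 7.66, 7.70 and 7.15 against 8.29, 8.17, 8.81 and 8.26. It kept this call without any 1 of the 8 arrays. Adamts20 was lower by -1.01 ± 0.25 (SE), adjusted p = 0.0299, at 4.91, 5.12, 5.25 and 4.98 against 5.98, 6.03, 6.28 and 6.02. The groups did not overlap for either gene, but Adamts20 lost its call without any 1 of the 8 arrays, Adamts1 lost it without any of 5 (against early) or 4 (against late), and Adamts8 without any of 5 or 6. Between intermediate and late, all 7 skeletal muscle markers were lower in intermediate cultures, with a mean of 6.88 to 7.94 against 9.83 to 10.25, and 4 cathepsin genes (Ctsb, Ctsd, Ctsl and Ctss) were higher. The part of these in the differences of Adamts15 and Adamts20 was not tested.

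**Figure D5:**
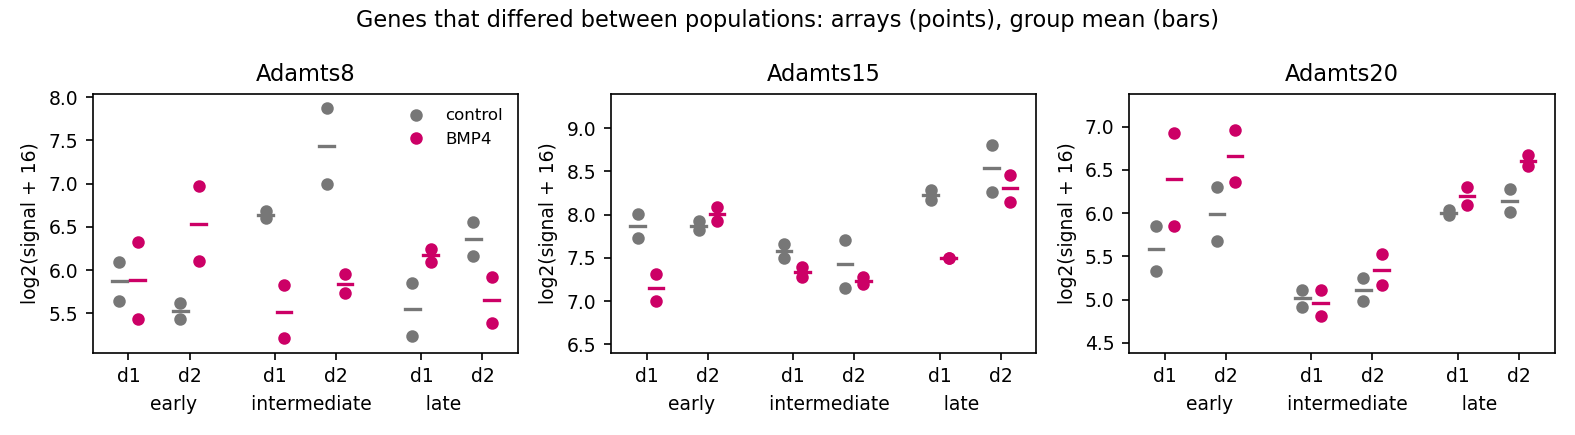
Level, as log2(signal + 16), of Adamts8, Adamts15 and Adamts20 in control (grey) and BMP4 (magenta) cultures by population and day, with 1 point per array and a bar at the mean of 2 arrays. Each panel has its own level axis. Adamts8 is higher in control than in BMP4 cultures of the intermediate population and lower in early cultures at day 2, and Adamts15 and Adamts20 are lower in intermediate than in late controls.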

How the data were processed

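The deposited values are signal intensity on a linear scale from 30 Affymetrix whole-genome mouse arrays, made with MAS5 per the submitters' processing notes. The MAS5 settings are not given in those sources, and every array had a trimmed mean of 150. Groups came from the labels. Of 45101 probe sets, 34945 had 1 gene symbol in the platform annotation, 932 several and 9160 none, and 64 were array controls. The brightest probe set of each gene that lay above its array's 40th percentile on at least 2 arrays was used, as log2(signal + 16), which left 15136 genes. Detection calls were not used.

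All 30 arrays entered 1 limma 3.58.1 fit in R 4.3.3, with a mean per group, a variance trend, 15 residual and 5.51 prior degrees of freedom and no replicate block. P-values are two-sided, from the moderated statistic, with Benjamini-Hochberg adjustment over all genes at 0.05. The procedure was tested on simulated data. Replicate numbers were not taken to pair the arrays, since same-numbered deviations correlated at -0.125 to 0.349 (median 0.121), not above 0.1 for every pair. All members are accounted for, and members past the threshold are named, up to 12 each way, with 17 fixed ones always described where on the array. The members, gene lists and marker lists were chosen with earlier results of these data known. The alternatives were pseudocounts of 1 and 64, filters, scalings, probe set means, no trend, the block, fewer groups, the doubted arrays and each array left out.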

Additional observations from a re-analysis of the deposited data

Results flagged for a closer look

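The response to BMP4 differed between populations by the test of the difference itself for Adamts8 among the proteases. For early minus intermediate it came to 1.87 ± 0.39 (SE), limma adjusted p = 0.0287. The intermediate controls used are also those in which Adamts8 was called higher than in early and late controls.

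The same test passed for some genes of the activator and substrate lists. For early minus late it gave -2.23 ± 0.35 (SE) for Acan, adjusted p = 0.00272, and 1.39 ± 0.27 (SE) for Dcn, adjusted p = 0.0199. It also gave 0.60 ± 0.12 (SE) for Ctsb, 1.08 ± 0.25 (SE) for Ctss and -1.13 ± 0.24 (SE) for Pcolce2, an enhancer of procollagen processing.

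For early minus intermediate it gave -1.59 ± 0.35 (SE) for Acan, adjusted p = 0.043, 1.63 ± 0.27 (SE) for Dcn, adjusted p = 0.00678, 0.95 ± 0.19 (SE) for Cdh2 and 2.15 ± 0.37 (SE) for Spock3, adjusted p = 0.00946. The comparisons share the early arrays. Groups of 2 arrays were too small to be searched for single outlying arrays.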

How the results depend on the processing

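With 2 arrays per group their number limits every comparison, and the log2(signal + 16) scale understates changes of dim probe sets. No called member's difference changed sign under any alternative run: of 1120 recomputed differences 926 kept their call and 194 lost it. For every change below the cause was not tested.

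Counts of called members moved by more than 1.5 times as follows. With a pseudocount of 1 the early minus intermediate response had 0 members, and with a pseudocount of 64 BMP4 in early cultures at day 2 had 5 and in late cultures at day 1 had 1. With no filter, and again with no variance trend, BMP4 in late cultures at day 1, the early minus late response and early minus late controls had 1 each. In all of these late and early minus late counts the gene was Mmp10, which passed the filter through 2 arrays. Quantile normalization gave 1 for BMP4 in late cultures at day 1, and the mean of probe sets gave 4 for the second day. A fit of only the groups compared gave 1 each for BMP4 in early cultures at day 1 and day 2, the early minus late response, early minus late controls and early minus intermediate controls, and 0 for the early minus intermediate response. Without the 3 doubted day 0 arrays the early minus late response had 1.

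With the replicate block BMP4 in late cultures at day 1 had 1 member, in early cultures at day 2 4, the early minus late response 2, the early minus intermediate response 3 and the mean over populations and days 10. The 2 were Adamts5 (adjusted p = 0.00871) and Adamts1 (adjusted p = 0.0358), which were also the 2 added for early minus intermediate (adjusted p = 0.00775 and 0.0284). The block kept every call of the member comparisons and added no others, but the numbers were not taken to pair the arrays.

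Leaving out 1 array at a time, with a lone array assumed to vary like the other groups, gave 13 to 16 members for the first day, 4 to 6 for the second, 0 to 2 for BMP4 in early cultures at each of days 1 and 2, and 0 to 0 in intermediate and late cultures. It gave 0 to 3 for the early minus intermediate response, 0 to 2 for early minus late, and 0 to 0 for intermediate minus late. For control cultures it gave 0 to 2 (early minus intermediate), 0 to 0 (early minus late) and 1 to 3 (intermediate minus late), and for the mean over populations and days 5 to 12.

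Counts of all genes also moved. BMP4 in early cultures had 371 genes at day 1, with 572 by the block and 83 by only the groups compared, and 860 at day 2, with 1379 and 168. Intermediate cultures had 36 at day 1, with 90 and 0, and 1 at day 2, with 0 to 4 by 7 alternatives. Late cultures had 12 at day 1, with 20 to 47 by 6 alternatives, and 2 at day 2, with 0 to 10 by 7. The early minus late response had 118, with 67 by a pseudocount of 1, 78 by the mean of probe sets, 185 by centring and 230 by the block. Early minus intermediate had 65, with 126 by a pseudocount of 64, 100 by quantile normalization, 127 by the block and 16 by only the groups compared. Intermediate minus late had 0, with 1 or 2 by 4 alternatives, and early minus intermediate controls had 129, with 199 by the block. Median centring changed higher and lower genes from 51 and 67 to 21 and 164 for the early minus late response, from 32 and 33 to 25 and 54 for early minus intermediate, and from 924 and 840 to 553 and 1060 for the mean over populations and days.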
